A study of Mus musculus with 12 samples.

Results

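The genes of the mitochondrial ribosomal proteins were followed in mouse neural progenitor cells that had lost lamin B1, a protein of the nuclear lamina. Members were taken by symbol, as Mrpl or Mrps followed by a number and at most 1 letter from a to c. At day 5 this gave 77 genes of 43309 features, of which 48 carried large-subunit names (Mrpl) and 29 small-subunit names (Mrps). At day 9 it gave 76 genes of 42802 features, 47 large and 29 small. The missing one, Mrpl58, stood in the day 9 table under its older symbol Ict1 and is given below among the other mitoribosomal genes. Mrpl33 was not analysed here. Every member passed the filter on low counts at both days, so all 77 and all 76 entered the tests.

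The 12 libraries formed 4 groups of 3. The cKO groups were LaminB1fl/fl; Ai3 progenitors taken 5 or 9 days after a lentivirus carrying pSox2-Cre, and the WT groups were LaminB1+/+; Ai3 progenitors that received the same virus for the same times. All were C57BL/6 cells kept in medium with EGF and FGF-2, growth factors that hold progenitors in division (10 ng/ml of each), and all were sorted for EYFP, the reporter that Cre switches on in Ai3 cells, before polyadenylated RNA was taken. Recombination therefore depended on a Sox2 promoter in cultured cells, and cells that never turned on EYFP are not in the data. The labels do not say whether replicates were separate cultures or animals, so a p-value here measures only the spread between these libraries, which may be technical.

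Mitochondria translate the few proteins encoded by their own genome on a ribosome of their own, whose ribosomal RNAs come from mitochondrial DNA and whose proteins are all made from nuclear genes in the cytosol and imported. Some of these proteins have counterparts in bacterial ribosomes, and others were added in the mitochondrial lineage. The products of this ribosome are membrane subunits of the respiratory chain and of ATP synthase, and neural progenitors are known to shift from glycolysis towards respiration as they differentiate. Promoters of such genes are known to bind NRF1, the GABP complex and YY1, factors that act on many nuclear genes for mitochondrial proteins.

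The 250 bases before the RefSeq start (build GRCm38.p6) could be read for 69 genes that fit the naming rule, Mrpl33 among them. Both strands were searched for the palindromic core of the NRF1 motif, whose matches are capitals in the sequences below, for CCGGAAGT, the motif of GABPA, for a YY1 motif around the core ATGGC, and for the E-box CACGTG, and no match of one overlapped a match of another. The NRF1 letters were found in 10 of the 69 (14.5%), against 3.86% of all 27025 promoters of that length. The GABPA letters were found in 9 (13.0%), against 2.93% of all. The YY1 letters were found in 1, Mrps11 (1.4%), against 0.22% of all, and the E-box in 5 (7.2%), against 6.05% of all. Among 61 promoters of cytosolic ribosomal protein genes, 1 (1.6%) held the NRF1 letters and 8 (13.1%) the GABPA letters. A match is a stretch of letters and not a shown binding site.

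Shown here, 5′ to 3′ on the strand of the gene and ending at the last base before the RefSeq start, are stretches from 5 members whose values are described below, with the matched letters in capitals. Mrps27, with the largest fall at day 9, has 1 GABPA match on the reverse strand (chr13:99344706-99344785, + strand). Mrpl12 (chr11:120484487-120484636, + strand) and Mrpl17 (chr7:105811088-105811237, - strand) have 1 NRF1 match each, and Mrpl45 (chr11:97315566-97315715, + strand) has 2. Mrps12 (chr7:28741822-28741971, - strand), which hardly differed between the genotypes, has none of the 4 motifs. Mrpl14, Mrpl28, Mrps16 and Mrpl42, which fell at day 9, have none of them either. Mrpl32 has an NRF1 match and Mrps22 and Mrps18c have a GABPA match, and these did not pass the threshold at day 9. Falls among all members with and without the letters are given below, and a link was not tested.
Mrps27: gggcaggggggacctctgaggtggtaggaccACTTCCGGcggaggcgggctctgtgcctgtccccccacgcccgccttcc
Mrpl12: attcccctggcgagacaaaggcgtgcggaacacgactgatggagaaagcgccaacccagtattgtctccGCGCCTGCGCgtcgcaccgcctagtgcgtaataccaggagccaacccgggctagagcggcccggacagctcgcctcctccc
Mrpl17: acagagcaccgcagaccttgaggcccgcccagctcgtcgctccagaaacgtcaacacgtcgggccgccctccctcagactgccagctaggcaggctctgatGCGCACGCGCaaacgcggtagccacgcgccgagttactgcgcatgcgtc
Mrpl45: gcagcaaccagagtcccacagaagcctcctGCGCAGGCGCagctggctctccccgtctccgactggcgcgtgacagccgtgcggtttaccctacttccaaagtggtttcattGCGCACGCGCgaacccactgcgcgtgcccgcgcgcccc
Mrps12: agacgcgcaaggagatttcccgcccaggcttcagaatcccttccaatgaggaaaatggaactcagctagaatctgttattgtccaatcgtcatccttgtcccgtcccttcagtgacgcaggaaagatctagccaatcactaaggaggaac

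Values are CPM, counts scaled to library size by TMM within a day, unless TPM, which is also scaled to transcript length, is named, and ± after a mean is the SD over 3 libraries. Levels were not compared between days, since each day had its own tables. Library totals were 26720620 to 28540142 counts in cKO and 29460433 to 32127716 in WT at day 5, and 13315399 to 22988516 in cKO and 24413023 to 24662871 in WT at day 9. Lmnb1, the floxed gene, fell at both days, with a log2 fold change of -2.68 ± 0.20 (SE) at day 5 and -2.38 ± 0.14 at day 9, adjusted p = 0.0493 and 1.8e-05 in edgeR's quasi-likelihood test with Benjamini-Hochberg adjustment. The day 5 change was -2.60 to -2.76 without single libraries, but the edgeR call was lost without each of the 6 (adjusted p 0.13 to 0.582), with a replicate block (1) and with no low-count filter (0.0541). It was kept with RLE scaling in edgeR (0.043), in DESeq2 (8.88e-34) and in limma on log2(TPM + 1) (0.0148). Every cKO library of day 5 lay below every WT library, at 37.8 to 45.0 CPM against 247 to 288 CPM. At day 9, 12 features that are or are known to hold stretches of structural RNA, such as Gm42418, Rn7sk and Lars2, took 72.4%, 0.362% and 71.2% of the counts in cKO libraries 1 to 3, against 15.9%, 34.9% and 17.9% in WT, so cKO libraries 1 and 3 stand apart from cKO library 2. At day 5 they took 14.2% in cKO library 2 and at most 0.509% in the other 5. Of the 10 progenitor markers, 9 were above 10 CPM at day 5, and the microglial genes Aif1, C1qa and C1qb were at 0 in every library of both days. At day 9 the summed progenitor markers were 1343 to 1526 CPM in cKO and 2693 to 3080 CPM in WT, the summed 10 cycling markers 120 to 146 CPM in cKO and 570 to 774 CPM in WT, and 8 of 10 cycling markers fell. Of 10 progenitor markers 5 fell and 2 rose, of 13 oligodendrocyte lineage markers tested 4 fell and 9 rose with overlapping sums (2701 to 3344 CPM in cKO and 2790 to 3026 CPM in WT), and rises were called for 8 of 10 astrocyte markers and 7 of 10 neuronal ones. Their part in the results below was not tested. In bulk RNA, fewer cells of a type and less RNA per cell cannot be told apart.

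At day 5, with TPM rescaled to the counts outside the structural RNAs, the large-subunit members had a median of 89.9 TPM in cKO (7.33 to 305 TPM) and 98.3 TPM in WT (6.59 to 327 TPM). The small-subunit members had 82.2 TPM in cKO (23.1 to 269 TPM) and 90.8 TPM in WT (24.98 to 291 TPM). Transcripts of proteins that sit in one particle were thus present at widely different levels. The highest large-subunit member was Mrpl17, at 305 ± 111 TPM in cKO and 327 ± 74.3 TPM in WT. It was followed in WT by Mrpl52 at 317 ± 29.2 TPM and Mrpl12 at 312 ± 82.5 TPM, and in cKO these had 275 ± 92.3 and 271 ± 103 TPM. Among small-subunit names Mrps6 had 269 ± 87.0 TPM in cKO and 291 ± 70.8 TPM in WT, Mrps21 247 ± 77.3 and 290 ± 26.5 TPM, and Mrps18a 166 ± 62.6 and 193 ± 40.9 TPM. Mrpl17, Mrpl52 and Mrpl12 differed from each other by less than their SDs, as did Mrps6 and Mrps21, while Mrps18a lay below Mrps21 by more than either SD. At the bottom stood Mrpl1, a stalk protein of the exit site in bacteria, with 7.33 ± 3.97 TPM in cKO and 6.59 ± 2.90 TPM in WT, then Mrpl35 with 13.0 ± 1.85 and 13.1 ± 1.67 TPM, and Mrpl47 with 26.0 ± 3.72 and 26.8 ± 10.4 TPM. The lowest small-subunit members were Mrps31 with 23.1 ± 1.70 and 24.98 ± 5.76 TPM, Mrps9 with 33.9 ± 3.97 and 37.2 ± 3.15 TPM, and Mrps22 with 40.4 ± 6.80 and 41.6 ± 11.4 TPM.

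No member changed at day 5. Of 77 members, 0 passed an adjusted p of 0.05 in edgeR's quasi-likelihood test, where 0.00673% of 14849 tested genes did (1 gene, Lmnb1), and 0 passed an unadjusted p of 0.05, against 89 of all tested genes. The smallest unadjusted p among them was 0.472, for Mrps18c, and DESeq2 also called 0. Fold changes were small: 68 of 77 were below 0, the median was -0.10 on the log2 scale for large-subunit and -0.08 for small-subunit names, against 0.01 for all genes, and the largest size was 0.23, for Mrpl1. The groups overlapped for all 77, where all cKO libraries lay below all WT libraries in 1.35% of all genes and above them in 1.5%. The members' median SE was 0.29, against 0.14 at day 9, so a change had to be larger to be called at day 5.

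At day 5 the members went high or low together by library. The lowest of the 3 cKO libraries was library 2 for 73 of 77 members (94.8%, against 48.3% of all genes), and the lowest of the 3 WT libraries was library 1 for 64 of 77 (83.1%, against 45.2% of all genes). With structural RNA set aside, the members held 0.587%, 0.349% and 0.512% of the remaining counts in cKO libraries 1 to 3, and 0.419%, 0.549% and 0.580% in WT. The pattern was not particular to the members. Cytosolic ribosomal protein genes also had their lowest summed TPM in these libraries. It was 74676 TPM in cKO library 2 (up to 145760 TPM in cKO) and 107183 TPM in WT library 1 (up to 142233 TPM in WT). The same 2 libraries had the highest sums of neuronal markers, 1003 CPM in cKO library 2 and 887 CPM in WT library 1, where the other 4 had 320 to 372 CPM. They also had the highest sums of progenitor markers (5229 and 5329 CPM, against 3916 to 5113 CPM) and of cycling markers (3117 and 3084 CPM, against 2536 to 2740 CPM). Mrpl12, whose protein forms the stalk that recruits translation factors, shows the pattern with 273, 114 and 192 CPM in cKO and 130, 248 and 267 CPM in WT. Mrpl1 ran the other way, with 7.99, 22.6 and 13.8 CPM in cKO and 17.8, 7.82 and 12.1 CPM in WT. Mrpl42 held closer together, with 111, 101 and 121 CPM in cKO and 119, 104 and 148 CPM in WT (log2 fold change -0.16 ± 0.22). The other members with the smallest p at day 5 were Mrpl41, Mrpl27, Mrps33 and Mrps21, with log2 fold changes of -0.19 to -0.20, none past the threshold. The median over all 77 members turned to 0.10 without cKO library 2 and to 0.04 without WT library 3, so no direction is given for day 5.

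At day 9 most members fell. Of 76, 49 were lower and 1, Mrps7, was higher in cKO at an adjusted p under 0.05 in edgeR's quasi-likelihood test, where 43.6% of 14617 tested genes passed, 22.6% lower and 21% higher. The 49 that fell stood at 45.8% to 80.2% of the WT mean. All cKO libraries lay below all WT libraries for 61 members (30.2% of all genes) and above them for 1 (27.6% of all genes), and 73 of 76 fold changes were below 0. The median was -0.50 over all members, against 0.01 over all genes. By name, 33 of 47 large-subunit members fell and 0 rose, with a median of -0.53, and 16 of 29 small-subunit members fell and 1 rose, with a median of -0.38. Without cKO libraries 1 and 3, whose members had 9416 and 10368 counts in all against 70517 in cKO library 2, the medians were -0.38 and -0.32. That fit has 1 cKO library, which is assumed to vary as the WT libraries do, and on that assumption 15 members were lower and 2 higher, with 12.3% of all genes lower and 9.07% higher. Leaving out single libraries moved the 50 calls to 26 without cKO library 1 (27.1% of all genes), 32 without cKO library 3 (30.5%), 33 without WT library 2 (27.3%) and 61 without cKO library 2 (50%). In all, 25 members, Mrps7 among them, passed in every such fit.

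**Figure D1:**
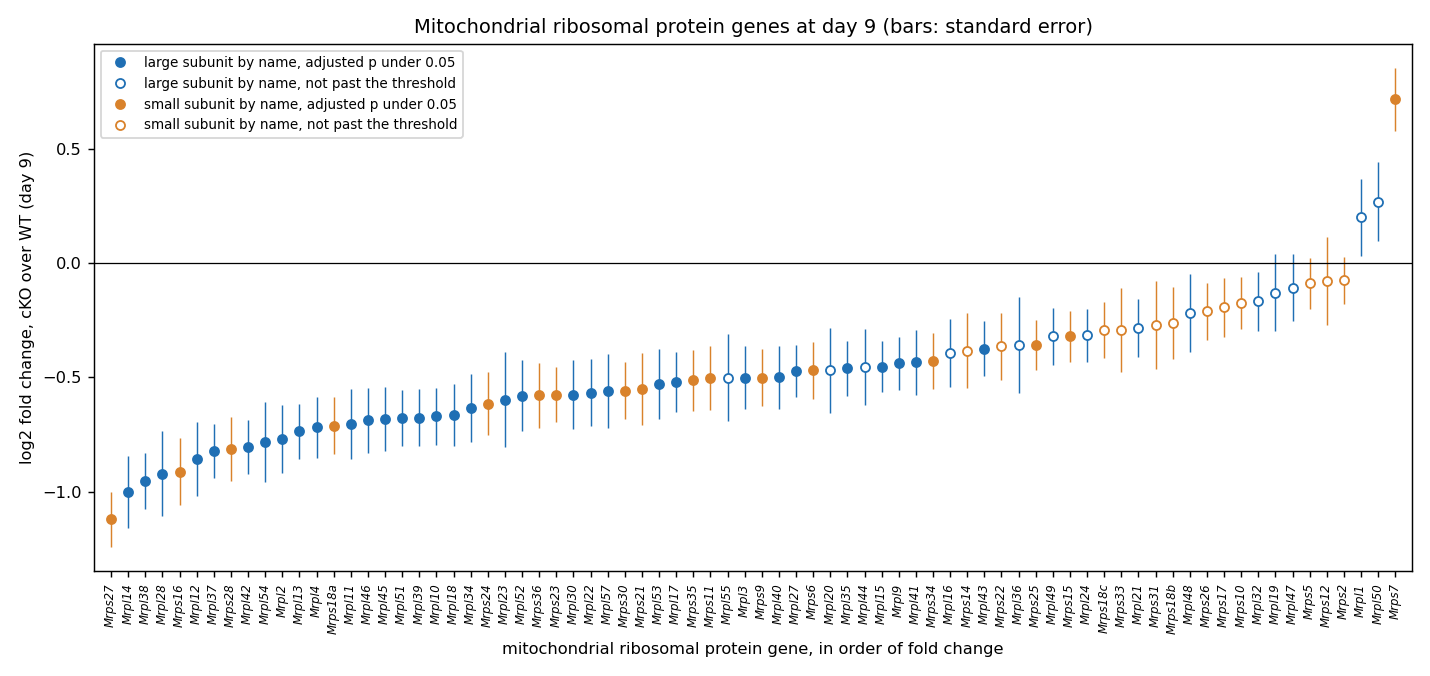
Log2 fold change of cKO over WT at day 9 for the 76 members, in order, with standard errors; filled points passed an adjusted p of 0.05 in edgeR and colour gives the subunit by name. The points run from -1.12 for Mrps27 to 0.72 for Mrps7, which is below 0 on uncentred TPM (-0.485), and 73 of 76 lie below 0.

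The largest falls were spread over both subunits. Mrps27 (chr13:99344786-99415562), a pentatricopeptide repeat protein of the small subunit with no bacterial counterpart, had 13.7, 15.6 and 13.4 CPM in cKO libraries and 32.2, 30.2 and 30.9 CPM in WT libraries. The groups were far apart, and the log2 fold change was -1.12 ± 0.12 (SE), adjusted p = 0.00029 in edgeR. Mrpl14 (chr17:45686322-45698495), the counterpart of a bacterial protein at the interface between the subunits, had 5.92, 7.32 and 6.19 CPM in cKO and 14.8, 12.2 and 12.5 CPM in WT, a log2 fold change of -1.003 ± 0.16 and adjusted p = 0.0019 in edgeR. Mrpl38 (chr11:116131817-116138868), specific to mitochondria, had 13.1, 15.8 and 14.5 CPM in cKO and 29.5, 27.6 and 27.4 CPM in WT, a log2 fold change of -0.95 ± 0.12 and adjusted p = 0.00073. In each of the 3 the highest cKO library was well below the lowest WT library. On the opposite strand, 6430562O15Rik shares 24.2% of the exonic length of Mrps27 and Tmem63b shares 11.2% of that of Mrpl14. Strand use is not given, so reads in those bases cannot be told apart.

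Mrpl28, a large-subunit protein with a bacterial counterpart, averaged 25.2 ± 5.82 CPM in cKO and 48.2 ± 7.73 CPM in WT (log2 fold change -0.92 ± 0.19). Mrps16, likewise shared with bacteria, had 10.3, 13.3 and 10.1 CPM in cKO and 22.8, 20.1 and 21.3 CPM in WT (-0.91 ± 0.15). Mrpl12, known also to bind the mitochondrial RNA polymerase, had 24.5, 32.8 and 22.2 CPM in cKO and 53.7, 46.0 and 45.3 CPM in WT (-0.86 ± 0.16). For each of them cKO library 2 was the highest of the cKO libraries and still below every WT library. The noncoding gene Gm16755 on the opposite strand shares 13.1% of the exonic length of Mrpl12. Mrpl37 (-0.82 ± 0.12) and Mrpl42 (-0.81 ± 0.12), large-subunit proteins without bacterial counterparts, averaged 29.8 ± 3.46 and 26.9 ± 2.56 CPM in cKO and 52.8 ± 2.69 and 47.2 ± 3.33 CPM in WT. Mrps28, the small-subunit counterpart of bacterial S1, was near the bottom in count, with 7.64, 7.29 and 6.90 CPM in cKO and 13.8, 11.5 and 13.1 CPM in WT (-0.81 ± 0.14). Mrps24, the counterpart of bacterial S3, which lines the entry of the messenger RNA, fell by 0.61 ± 0.14. All of these passed the threshold with every cKO library below every WT library. With cKO library 2 alone against WT, where the WT libraries supply the spread, Mrpl28 (-0.63) and Mrps24 (-0.47) did not pass.

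**Figure D2:**
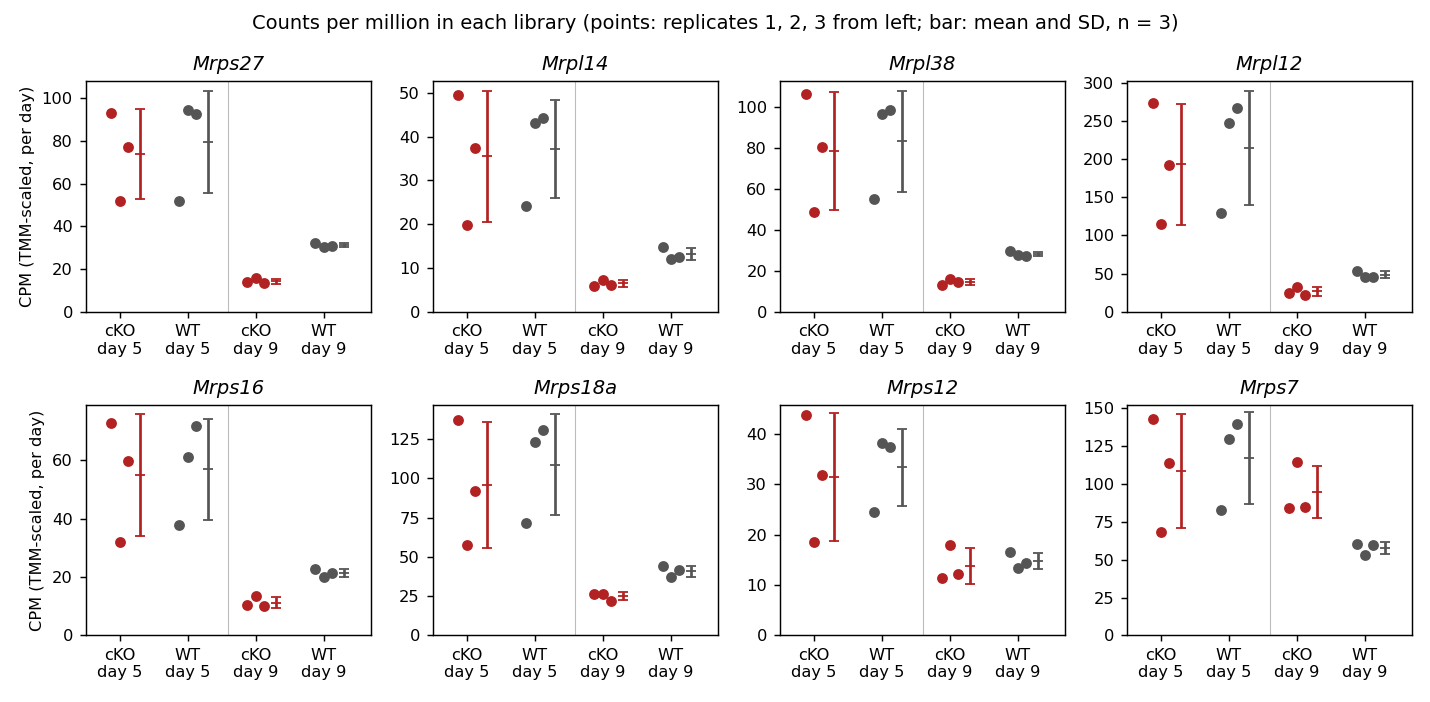
CPM of 8 members in each of the 12 libraries, scaled within a day; points are replicates 1 to 3 from left in cKO (red) and WT (grey), and the bar beside them is the mean and SD. At day 9 the groups are separate for Mrps27, Mrpl14, Mrpl38, Mrpl12, Mrps16 and Mrps18a, overlap for Mrps12, and stand in the opposite order for Mrps7. On uncentred TPM the log2 fold change of Mrps7 is below 0 (-0.485). At day 5 all 8 overlap.

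Of the members highest in WT at day 5 by TPM, 4 more fell at day 9. Mrpl17, the counterpart of a bacterial protein near the exit of the peptide tunnel, averaged 28.0 ± 3.74 CPM in cKO and 40.3 ± 2.97 CPM in WT (log2 fold change -0.52 ± 0.13). Mrpl52 averaged 15.6 ± 2.36 CPM in cKO and 23.4 ± 2.74 CPM in WT (-0.58 ± 0.16), Mrps21 24.0 ± 3.41 and 35.3 ± 5.12 CPM (-0.55 ± 0.16), and Mrps6 25.9 ± 2.90 and 36.0 ± 2.37 CPM (-0.47 ± 0.12). These calls were less firm. Without cKO library 1 all 4 no longer passed (-0.476, -0.621, -0.518 and -0.42), and Mrpl52, Mrps21 and Mrps6 also did not pass without cKO library 3 or without WT library 1, Mrps21 without WT library 3 and Mrps6 without WT library 2. Of the lowest, Mrpl35 (-0.46 ± 0.12) and Mrps9 (-0.50 ± 0.12) fell, though both calls were lost without cKO library 1, cKO library 3 or WT library 2 (-0.416 to -0.5), and that of Mrpl35 also without WT library 3, while Mrpl1, Mrpl47, Mrps22 and Mrps31 did not pass (0.20, -0.11, -0.36 and -0.27).

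Names and places in the particle do not always match. Mrps18a, Mrps18b and Mrps18c are related to bacterial S18, and of their proteins Mrps18a sits in the large subunit of the mammalian mitoribosome while the other 2 sit in the small subunit. Mrps18a had 26.2, 26.4 and 22.1 CPM in cKO and 44.2, 37.0 and 41.3 CPM in WT at day 9, a fall of 0.71 ± 0.13 on the log2 scale with adjusted p = 0.0033 in edgeR. Mrps18b had 17.9, 17.3 and 12.4 CPM in cKO and 20.1, 18.8 and 18.4 CPM in WT (-0.26 ± 0.16, adjusted p = 0.203 in edgeR). Mrps18c had 13.4, 12.8 and 11.3 CPM in cKO and 15.8, 15.1 and 15.04 CPM in WT (-0.29 ± 0.12, adjusted p = 0.0866). All cKO libraries lay below all WT libraries for each of the 3, and 1 passed the threshold. The difference between these paralogs was not tested. Mrps30, which also sits in the large subunit in spite of its name, fell by 0.56 ± 0.13 (18.9 ± 2.12 CPM in cKO and 28.0 ± 0.697 CPM in WT). Mrps36, now known as a subunit of the oxoglutarate dehydrogenase complex, fell by 0.58 ± 0.14 (13.1 ± 1.55 and 19.7 ± 2.34 CPM), and this call was lost without cKO library 1 (-0.539) or cKO library 3 (-0.539). With cKO library 2 alone against WT, a fit whose spread comes from WT, neither Mrps30 (-0.432) nor Mrps36 (-0.437) passed.

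With Mrps18a and Mrps30 counted as large and Mrps36 left out, 35 of 49 large-subunit members fell with a median of -0.56, and 13 of 26 small-subunit members fell and 1 rose with a median of -0.36. Medians differed less by origin than by place. Of members with a bacterial counterpart 27 of 45 fell and 1 rose (median -0.47), and of those specific to mitochondria 21 of 30 fell (median -0.52). Within the large subunit 19 of 29 with a bacterial counterpart fell (median -0.50) and 16 of 20 specific ones (median -0.57). Within the small subunit 8 of 16 with a counterpart fell and 1 rose (median -0.35), and 5 of 10 specific ones fell (median -0.36). No test was made of these differences.

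**Figure D3:**
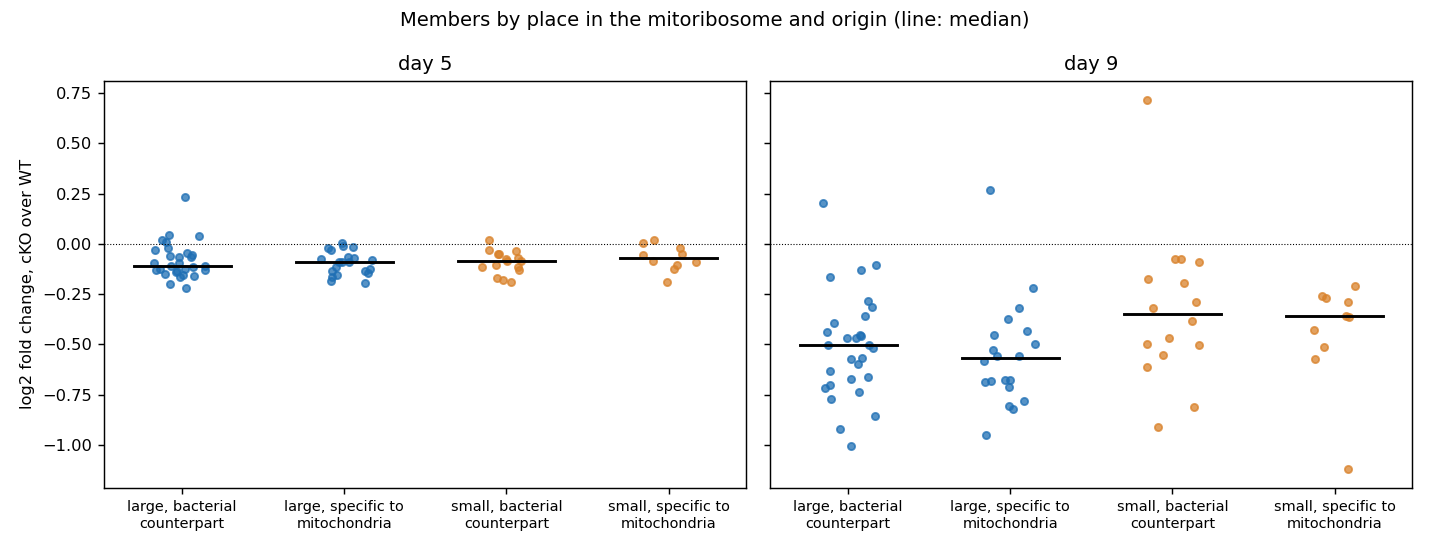
Log2 fold change of cKO over WT for members grouped by place in the mitoribosome and by origin, at day 5 (left) and day 9 (right); each point is a gene, the line is the median, and horizontal scatter is only for legibility. Medians at day 9 run from -0.57 to -0.35, and the point at 0.72 is Mrps7, which is below 0 on uncentred TPM.

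Of the 76 members 26 did not pass at day 9. Mrps12, the counterpart of bacterial S12 at the decoding centre, had 11.4, 17.9 and 12.1 CPM in cKO and 16.6, 13.3 and 14.4 CPM in WT, overlapping groups with a log2 fold change of -0.08 ± 0.19. Mrps2 averaged 33.5 ± 1.24 CPM in cKO and 35.4 ± 1.89 CPM in WT (-0.07 ± 0.10), and Mrps5 48.9 ± 3.44 and 52.0 ± 5.31 CPM (-0.09 ± 0.11). Their SEs are as small as those of members that fell. Mrpl47 (-0.11 ± 0.15), Mrpl19 (-0.13 ± 0.17), Mrpl1 (0.20 ± 0.17) and Mrpl50 (0.27 ± 0.17) were the large-subunit members with values nearest to or above 0. Mrps2, Mrps5, Mrpl19 and Mrpl50 were picked after their values were seen. The member nearest inside the threshold was Mrps15 (adjusted p = 0.0483) and the nearest outside was Mrpl44 (adjusted p = 0.0545), both in edgeR.

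Mrps7 (chr11:115603925-115608036, + strand) was the exception. Its protein is the counterpart of bacterial S7, which in Escherichia coli binds early and starts the assembly of the head of the small subunit. It had 84.5, 115 and 84.9 CPM in cKO and 60.1, 53.4 and 59.7 CPM in WT at day 9, and every cKO library lay above every WT library. The log2 fold change was 0.72 ± 0.14 (SE), adjusted p = 0.0049 in edgeR, and DESeq2 gave 0.73. It was 0.54 without cKO library 2 and passed in every fit on counts with at least 2 cKO libraries. With cKO library 2 alone it was 0.96. On log2(TPM + 1) it was -0.485, where the median of all genes was -0.786, and with each library centred on its median it was 0.34 and did not pass. Within each library, which no scaling touches, Mrps7 made up 4.18 ± 0.441% of the members' summed TPM in cKO and 1.96 ± 0.021% in WT at day 9. That sum, without structural RNA, was itself lower in cKO, at 2679, 5824 and 2811 TPM against 6482, 6180 and 6385 TPM in WT. A higher share thus does not by itself show a higher level. In the same rescaled TPM, Mrps7 was lower in cKO libraries 1 and 3 than in every WT library, and higher in cKO library 2. At day 5 the shares were 1.54 ± 0.065% in cKO and 1.58 ± 0.107% in WT, and the CPM overlapped, with 143, 68.5 and 114 in cKO and 82.9, 130 and 139 in WT.

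The genes on either side of Mrps7 were looked at after these values were seen. Gga3, which codes for an adaptor of vesicle transport, starts on the opposite strand 126 bases inside Mrps7 and shares 127 bases with it. It had 52.5, 50.5 and 51.4 CPM in cKO and 23.7, 21.1 and 27.2 CPM in WT at day 9, and rose by 1.099 ± 0.12 on the log2 scale (adjusted p = 0.00034 in edgeR). Mif4gd, which runs towards Mrps7 from the other side and shares 119 bases with its end, had 32.1, 39.5 and 34.8 CPM in cKO and 18.3, 15.8 and 17.6 CPM in WT, and rose by 1.04 ± 0.13 (adjusted p = 0.00062). Farther out, Nup85 fell by 0.68 ± 0.12 and Jpt1 fell by 0.77 ± 0.12, while Sumo2 (-0.31 ± 0.13) did not pass. None of these genes changed at day 5. Since strand use is not given in the sources used here, reads in the shared bases cannot be told apart, and Gga3 overlaps 6.1% of the exonic length of Mrps7.

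**Figure D4:**
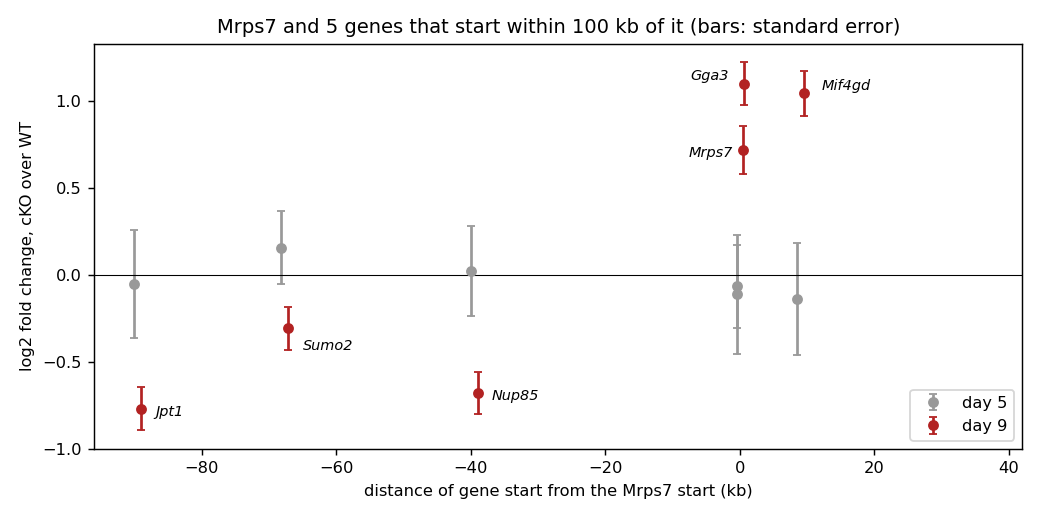
Log2 fold change of cKO over WT, with standard errors, for Mrps7 and 5 tested genes that start within 100 kb of its start, at day 5 (grey) and day 9 (red), against the distance of their starts; points of the 2 days are set slightly apart for legibility. At day 9 Gga3, Mrps7 and Mif4gd lie at 1.099, 0.72 (below 0 on uncentred TPM) and 1.04, and at day 5 all 6 lie near 0.

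The balance between the subunits' transcripts was compared within libraries as the summed TPM of large-subunit over that of small-subunit members. At day 9 it was 1.33, 1.39 and 1.41 in cKO and 1.57, 1.605 and 1.55 in WT, so the groups did not overlap. The ratio was 1.33 and 1.41 in the 2 cKO libraries rich in structural RNA and 1.39 in the one poor in it. At day 5 it was 1.78, 1.78 and 1.73 in cKO and 1.74, 1.75 and 1.78 in WT, which overlapped. Mrps7 supplied 8.89%, 11.2% and 9.74% of the small-subunit sum in cKO and 5.08%, 5.05% and 5.01% in WT at day 9. The small-subunit sum itself was 1150, 2434 and 1167 TPM in cKO and 2526, 2373 and 2507 TPM in WT. Without Mrps7 the ratio was 1.46, 1.57 and 1.56 in cKO and 1.65, 1.69 and 1.63 in WT, still without overlap. On counts it was 1.42, 1.49 and 1.48 in cKO and 1.76, 1.76 and 1.72 in WT. Of the counts left without structural RNA at day 9, the members held 0.256%, 0.308% and 0.262% in cKO and 0.380%, 0.360% and 0.368% in WT. Within cKO this share was highest in library 2, the one poor in structural RNA. A part of structural RNA in these values was not tested. Library 2 was the highest of the cKO libraries for 67 of 76 members (88.2%, against 47.0% of all genes).

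**Figure D5:**
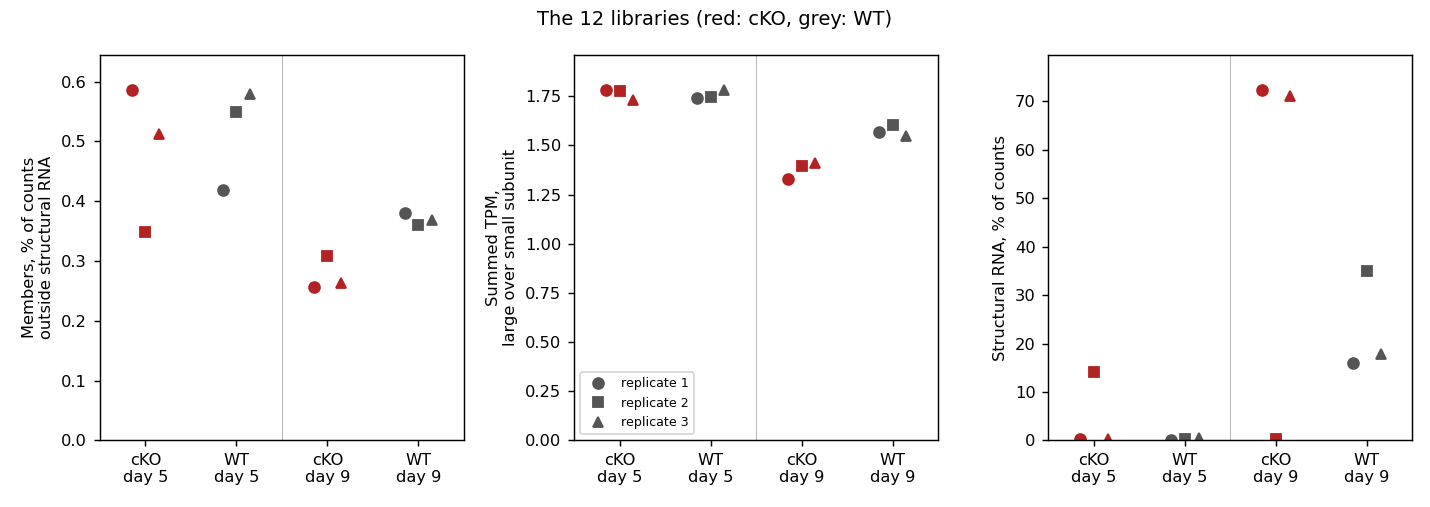
For each of the 12 libraries, the members' share of the counts outside structural RNA (left), the ratio of summed TPM of large-subunit over small-subunit members (middle) and the share of all counts taken by structural RNA (right); cKO in red, WT in grey, symbols give the replicate. At day 9 the cKO libraries are below the WT libraries in the left and middle panels. The right panel spreads the cKO libraries between 0.362% and 72.4%, and a part of structural RNA in the other panels was not tested.

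Whether the genotype difference itself differed between the days was tested across all 12 libraries on the symbols found once in both tables. Of 76 members 0 passed in edgeR, where 7.71% of 15323 tested genes did, 5.14% lower and 2.57% higher, and 8 had an unadjusted p under 0.05, where 2885 of all genes did. DESeq2 called 1, Mrpl18, and 10.5% of all genes. The day 9 change minus the day 5 change was below 0 for 74 of 76, with a median of -0.46 for large-subunit and -0.31 for small-subunit names. The smallest adjusted p was 0.0776, for Mrpl18, the counterpart of bacterial L18, at -0.71 ± 0.21. Its day 5 values were 64.9, 54.6 and 67.1 CPM in cKO and 61.2, 54.5 and 65.5 CPM in WT, and its day 9 values 21.0, 27.3 and 21.5 CPM in cKO and 35.4, 39.2 and 36.7 CPM in WT. The next were Mrpl42 (-0.65 ± 0.22), Mrpl39 (-0.60 ± 0.21), Mrps27 (-1.02 ± 0.35) and Mrpl13 (-0.61 ± 0.21), with adjusted p of 0.119 to 0.133 in edgeR. Without cKO library 2 of day 5, the one low in nearly all members, 8 members passed, with 15.5% of all genes, and without cKO library 2 of day 9 1 did, with 5.79%. Mrps7 stood at 0.83 ± 0.38 (adjusted p = 0.272).

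Genes around the mitoribosome were read from 7 lists, which were chosen with earlier results of these data known. At day 5 none of their genes passed. At day 9, 5 of 6 other mitoribosomal proteins fell (median -0.60). Dap3, a small-subunit protein that binds GTP, averaged 49.99 ± 4.51 CPM in cKO and 76.0 ± 4.51 CPM in WT (-0.60 ± 0.10), Ict1, a peptidyl-tRNA hydrolase built into the large subunit, 15.7 ± 1.65 and 29.9 ± 1.07 CPM (-0.92 ± 0.13), and Aurkaip1 21.7 ± 3.95 and 37.0 ± 2.33 CPM (-0.76 ± 0.15). Ptcd3, a pentatricopeptide repeat protein of the small subunit, had 26.2, 28.2 and 21.4 CPM in cKO and 19.7, 20.8 and 15.9 CPM in WT and did not pass (0.43 ± 0.16, adjusted p = 0.0548 in edgeR). As background to the lists, 22.6% of all tested genes fell and 21% rose. Of 25 assembly factors 7 fell and 1 rose (median -0.22). Eral1, which binds the small-subunit ribosomal RNA, fell by 0.80 ± 0.12, and Mettl15, a methyltransferase of that RNA, fell by 1.16 ± 0.21, while Mterf3 rose by 0.88 ± 0.14.

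Of 14 translation factors 7 fell and 2 rose (median -0.36), and the background for this and the next lists is again 22.6% of all tested genes lower and 21% higher. Tufm, the elongation factor that brings tRNAs to the ribosome, averaged 54.0 ± 4.34 CPM in cKO and 93.5 ± 8.57 CPM in WT (-0.79 ± 0.11), Oxa1l, the insertase for its products, fell by 0.51 ± 0.11, and the GTPase Guf1 rose by 0.82 ± 0.21. Of 17 mitochondrial tRNA synthetases 6 fell, Aars2 by 0.81 ± 0.16 and Sars2 by 0.78 ± 0.16 among them, and Mars2 rose by 0.75 ± 0.14 (median -0.32); Lars2 is among the structural RNA features here. Of 23 genes for processing and modification of mitochondrial RNA 6 fell, such as Tbrg4 and Fastk, and 4 rose, such as Lrpprc, which stabilises mitochondrial messenger RNAs (median 0.11). Of 13 genes for mitochondrial DNA expression 2 fell and 1 rose (median 0.04). These were Polg, the mitochondrial DNA polymerase, with 85.7 ± 1.89 CPM in cKO and 163 ± 4.55 CPM in WT (-0.92 ± 0.09), Mgme1 (-0.51 ± 0.15) and Tfb2m (0.49 ± 0.17). Cytosolic ribosomal protein genes stood beside the members with 44 of 77 lower, 2 higher and a median of -0.52.

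Among 17 nuclear regulators 2 fell and 3 rose at day 9 (median 0.28), where 22.6% of all tested genes fell and 21% rose. Nrf1 averaged 20.4 ± 1.92 CPM in cKO and 30.9 ± 2.21 CPM in WT (-0.60 ± 0.13), and Esrra, a nuclear receptor for respiratory genes, 14.3 ± 1.43 and 26.5 ± 2.24 CPM (-0.89 ± 0.13), with adjusted p = 0.0076 and 0.0014 in edgeR. Mycn rose at a low level, with 1.42 ± 0.356 CPM in cKO and 0.449 ± 0.027 CPM in WT. Gabpa had 24.2, 29.1 and 24.3 CPM in cKO and 23.3, 14.6 and 7.97 CPM in WT and did not pass (0.76 ± 0.38). Of the 10 members with the NRF1 letters in the promoter 8 fell (median -0.55), of the 9 with the GABPA letters 6 fell (median -0.47), and of the 48 with neither 27 fell and 1 rose (median -0.47). Mrpl45, with 2 NRF1 matches, averaged 29.8 ± 5.51 CPM in cKO and 48.1 ± 1.09 CPM in WT (-0.68 ± 0.14).

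Many members share their start region with a gene on the other strand. By GENCODE vM21, 26 members have a protein-coding gene that starts divergently, within 1000 bases upstream or with up to 500 bases of overlap, and Mrpl46 and Mrps11 face each other, with falls of 0.69 ± 0.14 and 0.50 ± 0.14 at day 9. Of the 24 partners that are not members 10 fell and 4 rose, with a median of -0.31, where 22.6% of all tested genes fell and 21% rose. Mrpl51 (-0.68 ± 0.12) faces the condensin gene Ncapd2, Mrpl57 (-0.56 ± 0.16) faces the kinetochore gene Ska3 and Mrpl27 (-0.47 ± 0.11) faces the nuclease gene Eme1. Without cKO library 1 the calls of Mrpl27 (-0.431), Mrpl57 (-0.585) and Mrps11 (-0.433) were lost. Those of Mrpl57 (-0.491) and Mrps11 (-0.457) were also lost without WT library 1, and that of Mrpl57 without cKO library 3 (-0.446) or WT library 2 (-0.599). In these 3 pairs the partner's change was larger, at -2.28 ± 0.11 for Ncapd2, -2.68 ± 0.27 for Ska3 and -2.40 ± 0.25 for Eme1. Mrps27 and its partner Ptcd2 (-0.83 ± 0.15) both fell. Mrps12 and Sars2, whose starts lie 172 bases apart, did not move alike, since Sars2 fell by 0.78 ± 0.16 and Mrps12 had -0.08 ± 0.19. Mrpl44 (-0.45 ± 0.16, not past the threshold) faces Wdfy1, which rose by 0.42 ± 0.12. The pairs named here were picked after their values were seen. Of 51 members with under 5% of their exonic length shared with another gene, 33 fell (median -0.51), and of 25 with more, 16 fell and 1 rose (median -0.45).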

How the data were processed

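Polyadenylated RNA was measured in 12 libraries. The authors deposited expected counts and, separately, TPM values per gene, for each day in its own tables; the submitters' processing notes name RSEM, Bowtie2 and mm10. Per the file headers, each column is the RSEM gene output of one single-end library. Strand use, annotation and filters: not given in the sources used here. The deposited expected counts were rounded. Tests for each day used edgeR 4.0.16 under R 4.3.3 (filterByExpr, TMM, robust quasi-likelihood fit, cKO against WT, no covariate), with Benjamini-Hochberg adjustment over all tested genes and a threshold of 0.05, and the day difference on all 12 libraries over 41592 shared symbols. SEs are the size of the log2 fold change over the square root of F. TPM as the authors gave it served for limma 3.58.1 alternatives, and TPM rescaled without the structural features for levels and within-library ratios; the limma fits had pseudocounts of 1 and 0.1; DESeq2 1.42.0 was another alternative. Gene places come from GENCODE vM21, promoters from RefSeq. Depth limits precision most in cKO libraries 1 and 3 of day 9, where the median member had 111 and 123 counts. The edgeR fit was also run on simulated counts whose libraries shared the same profile apart from set fold changes. That run does not cover libraries as uneven in structural RNA as those of day 9.

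Named members are, per subunit, the 6 largest falls and rises at day 9 that passed, averaged 5 CPM or more and had groups without overlap, the 3 smallest p at day 5, the 3 highest and 3 lowest TPM in WT at day 5, the 5 smallest adjusted p for the day difference, a fixed set (Mrps18a, Mrps18b, Mrps18c, Mrps30, Mrps36, Mrpl12, Mrps12), and up to 3 genes a list. Other genes are said to be picked later or stand outside these rules, such as Ptcd3, Gabpa and Mrpl45. The members and lists were chosen with earlier results of these data known. The place and origin of each member and the role of each gene are background knowledge. Columns of samples left unused numbered 0. One further gene near Mrps7 is not reported here.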

Additional observations from a re-analysis of the deposited data

How the results depend on the processing

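At day 5 no setting called a member, and the medians ran from -0.267 to 0.105 (large) and -0.245 to 0.095 (small) without single libraries. At day 9 DESeq2 called 49 members (45.7% of all genes), RLE scaling 50 (44.1%), no low-count filter 49 (22.8%) and removal of structural RNA 58 (44.9%). limma called 0 on log2(TPM + 1) (3.92%) and 0 on log2(TPM + 0.1) (4.7%), where the median of all genes moved to -0.786 and -1.022; the large-subunit medians were then -1.548 and -1.639, the small-subunit ones -1.491 and -1.553, and Mrps7 stood at -0.485 and -0.499. The cause was not tested. After centring each library on its median, chosen after seeing the data, limma called 50 (29.5%), all lower, with medians of -0.728 and -0.670 and Mrps7 at 0.336, not called. Without single libraries the calls ran from 26 (27.1%) to 61 (50%) and the medians from -0.701 to -0.461 and from -0.515 to -0.365; without cKO libraries 1 and 3, with 1 cKO library left and the spread taken from WT, they were 17 (21.3%), -0.384 and -0.316. All 50 called members kept their direction in every fit on counts and on centred TPM. On uncentred TPM 49 did, but there all 76 members were below 0, so the sign of a single member tells little. For the day difference DESeq2 called 1 (10.5%), and the fits without single libraries 0 to 8 (15.5%). The deviations of same-numbered libraries had correlations of -0.803, -0.629 and 0.632 at day 5, and of 0.016, -0.200 and -0.037 at day 9. With 3 libraries a group these cannot show whether the numbers pair libraries, and the labels do not say. A replicate block left 0, 44 and 0 members called at day 5, at day 9 and for the difference.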

Other observations

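Mitochondrially encoded messenger RNAs are what the mitoribosome translates, and the tables list none of their genes by name. They do list 11 nuclear pseudogenes whose transcripts match a mitochondrial transcript over at least 200 bases at 95% identity or more. They were looked up after the members' values were seen, and reads from the mitochondrial genes and from these copies cannot be told apart. Of the counts left without structural RNA, the 11 together held 3.84%, 3.56% and 2.76% in cKO libraries at day 9, against 2.41%, 2.17% and 1.998% in WT libraries, so the groups did not overlap and lay in the opposite order to the mitoribosomal protein genes. At day 5 they held 1.37%, 4.202% and 1.597% in cKO and 3.15%, 1.42% and 1.96% in WT, highest in the same 2 libraries, cKO 2 and WT 1, in which most mitoribosomal members were lowest. At day 9 Gm29216, which matches mt-Co1, rose by 0.84 ± 0.19 on the log2 scale (4372 ± 983 CPM in cKO and 2439 ± 350 CPM in WT, adjusted p = 0.0105 in edgeR), and Gm13340, which also matches mt-Co1, rose by 0.79 ± 0.23 (5183 ± 1475 and 2993 ± 528 CPM, adjusted p = 0.0271). Gm28437, which matches mt-Co3, had 0.16 ± 0.16, and Gm28438, which matches mt-Nd3, had -0.01 ± 0.15. Gm13341 was not tested at day 9. Apart from Gm29216 and Gm13340, none of the others passed at day 9, where 21% of all tested genes were called higher. At day 9 the summed astrocyte markers (3225 to 3922 CPM in cKO and 1959 to 2279 CPM in WT) and neuronal markers (530 to 594 CPM in cKO and 130 to 296 CPM in WT) were also higher in cKO, and the progenitor and cycling sums lower. Their part in these values was not tested.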
